A study of Mus musculus with 6 samples.

Results

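The inhibitory and paired receptors of the LILR, PIR, SIRP, CD300 and Siglec families, with the C-type lectin Clec12a, were examined in sorted peritoneal macrophages (PMs) of lupus-prone and control mice. The set held 10 genes, chosen by name with their fold changes in these same libraries already known, and all 10 had records among the 32879 genes counted. The libraries came from 3 control mice of the strain New Zealand white/BALB/c, aged 33, 33 and 30 weeks, and 3 New Zealand black/New Zealand white mice with lupus (diseased-BWF1), aged 31, 31 and 34 weeks. Both groups are first-generation hybrids with a New Zealand white parent, the labels name no agent for either group, and each library held the PMs of 1 female mouse, sorted as CD11b+ F4/80+ cells. Disease and the other parental strain differ together between the groups and cannot be told apart.

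Inhibitory receptors of this kind carry a tyrosine motif (ITIM) in their cytoplasmic tail. Once Src-family kinases such as Lyn phosphorylate the motif, it recruits the phosphatases SHP-1, SHP-2 and SHIP-1, encoded by Ptpn6, Ptpn11 and Inpp5d, which dampen activation of the macrophage. Their paired partners have a closely related extracellular part but no such motif, and they signal through the ITAM adaptors Fcer1g and Tyrobp. Paired receptors sit in gene clusters with many near copies, so that a short read often fits more than 1 gene.

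Lilrb4a and Lilr4b are neighbours on chromosome 10 (GRCm38.p6, chr10:51490898-51496613 and chr10:51480612-51486329). Lilrb4a encodes gp49B, which has ITIMs, and Lilr4b encodes gp49A, which has none. Their coding sequences (GENCODE vM21, GRCm38) matched at 96.03% of 907 aligned bases, with an identical run of 126 bases. The stretch of 75 bases, the read length of the study, with the most differences between the genes is shown here, since reads from it are the easiest to assign. It covers coding bases 227 to 301 of either gene, lies within a single exon on the plus strand, at chr10:51481296-51481370 in Lilr4b and chr10:51491590-51491664 in Lilrb4a, and the 10 bases that differ are in capitals.
Lilr4b: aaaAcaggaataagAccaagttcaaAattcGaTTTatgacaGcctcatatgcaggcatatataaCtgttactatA
Lilrb4a: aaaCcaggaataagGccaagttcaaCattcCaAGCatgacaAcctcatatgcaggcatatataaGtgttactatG

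Pirb and Gm15448 lie in the PIR cluster on chromosome 7 (chr7:3712505-3720382 and chr7:3816663-3825760). Pirb encodes PIR-B, an ITIM receptor that binds MHC class I, and Gm15448 is a predicted gene with no symbol of its own. Their promoters are shown because the genes had different values in diseased-BWF1 mice although the promoters are near copies. The windows run from 250 bases before to 50 bases after the annotated start (RefSeq, GRCm38.p6), at chr7:3720333-3720632 and chr7:3825711-3826010, both on the minus strand. Of 237 aligned bases, 236 were identical. Capitals mark GAGGAAGT, a core of the kind bound by the myeloid factor PU.1, searched on both strands.
Pirb: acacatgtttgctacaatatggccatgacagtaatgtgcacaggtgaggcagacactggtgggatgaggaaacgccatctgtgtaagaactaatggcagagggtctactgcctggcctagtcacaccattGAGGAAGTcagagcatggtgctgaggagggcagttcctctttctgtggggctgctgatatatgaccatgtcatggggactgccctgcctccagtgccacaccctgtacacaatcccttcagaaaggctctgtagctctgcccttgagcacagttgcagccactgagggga
Gm15448: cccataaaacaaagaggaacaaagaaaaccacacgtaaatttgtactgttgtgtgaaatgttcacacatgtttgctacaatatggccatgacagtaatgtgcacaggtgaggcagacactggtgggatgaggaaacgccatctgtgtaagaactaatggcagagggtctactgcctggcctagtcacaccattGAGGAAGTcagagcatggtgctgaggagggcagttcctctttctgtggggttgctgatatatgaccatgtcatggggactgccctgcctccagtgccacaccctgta

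RefSeq promoters were matched for 8 of the 10 receptors, leaving Lilrb4a and Sirpa. GAGGAAGT occurred in 4 of the 8, namely Pirb, Gm15448, Cd300ld and Cd300lf, and in 3.202% of the 32851 promoter windows of all genes. Pira1, Pira2, Gm14548 and Lilra6, the activating-type neighbours of Pirb, held it too, and their windows matched that of Pirb at 97.33%, 97.06%, 96.3% and 95.93% of aligned bases. A match is a description of these letters only.

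Cd300ld and Cd300lf, from the CD300 cluster on chromosome 11 (chr11:114982443-114989886 and chr11:115116214-115135372), form an activating and inhibitory pair. Cd300lf encodes the ITIM receptor CLM-1, which binds lipids, and Cd300ld encodes CLM-5, which couples to Fcer1g. Their coding sequences matched at 80.73% of 602 aligned bases. They shared the following run of 134 bases. It is shown because a read of 75 bases within it, without its paired read, fits both genes. It lies within 1 exon of each gene on the minus strand, at chr11:114987342-114987475 in Cd300ld and chr11:115126150-115126283 in Cd300lf.
Cd300ld and Cd300lf: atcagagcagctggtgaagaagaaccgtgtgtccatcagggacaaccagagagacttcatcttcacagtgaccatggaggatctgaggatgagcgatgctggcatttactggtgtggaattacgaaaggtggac

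The share of each receptor's 75-base sequences that also occurs in annotated transcripts of other genes ranged widely. It was 39.78% for Lilrb4a, where 32.24% of all sequences occurred in the gene model Gm49339 and 16.33% in Lilr4b, some of them in both. Lilr4b had 15.04%, Gm15448 37.58% and Pirb 26.03%. Cd300a, Cd300lf and Cd300ld had 1.374%, 1.119% and 2.334%, and Sirpa, Siglece and Clec12a had 0%. Values of the first 4 genes are therefore uncertain as single genes, and sums over paralogs are given beside them. The reference sequence is that of another strain than these mice, and the part of strain differences in the counts was not tested.

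The authors counted reads on RefSeq transcript records, and the records of each gene were summed. Totals were 3629901 to 5003360 counts per mouse, and 3 counts correspond to 0.652 to 0.888 CPM (counts scaled to a common library size), a floor that covers counting error only. Values below are normalized counts, scaled by DESeq2 size factors between 0.871 and 1.21. The call required 1.5-fold or more and an adjusted p under 0.05 (edgeR's quasi-likelihood test, Benjamini-Hochberg over 10505 genes). None of the 8 markers of large PMs, which include Gata6, Timd4 and the sorting antigens Adgre1 and Itgam, was called. They summed to 47507 to 53296.5 normalized counts in control and 46554.5 to 50651 in diseased-BWF1 mice. Itgam was the largest part, at means of 24218 and 26562. Of the 8, 6 had log2 fold changes below 0 and 2 above. Timd4, Icam2 and Adgre1 (-0.531, -0.555 and -0.174) were lower without overlap between the groups, against 20.8% of all genes without overlap. These 3 were singled out after their values were seen. Ly6g, Retnlg, Ccr7, Prg2, Epx, Mcpt4, Tpsb2, Kit and Msln, from the lists of neutrophils, dendritic cells, eosinophils, mast cells and mesothelium, were at 0 in every mouse. The B cell list summed to 12.3 to 23.2 and 2.02 to 12.3 normalized counts, and the T and NK cell list to 2.30 to 7.20 and 2.03 to 11.3. The list of 6 monocyte markers summed to 1960 to 3600 and 1877 to 2969 normalized counts, and Ly6c2 had at most 1 count in any mouse. The neutrophil list summed to 1232 to 1283 and 783 to 1228 normalized counts, and the dendritic cell list to 34.8 to 41.3 and 30.3 to 52.9. Nearly all of the neutrophil sum was Csf3r, at means of 1238 and 1038, whereas S100a8 had means of 9.93 and 12.9. Csf3r and S100a8 are named after their values were seen. The part of other cell types in the receptor values was not tested. In bulk samples, fewer cells of a type and less RNA per cell cannot be told apart.

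Of the 10 receptors, Gm15448 and Siglece were called higher and Lilr4b lower in diseased-BWF1 mice, against 0.4% and 0.819% of all genes tested in these directions and 1.22% in both. The groups did not overlap for these 3 genes and for Lilrb4a and Cd300ld, against 20.8% of all genes. Since the receptors were selected on these values, the counts describe the set and test nothing. All 10 passed the filter on low counts, and their median log2 fold change was 0.56, beside 0.0053 over all genes tested.

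**Figure D1:**
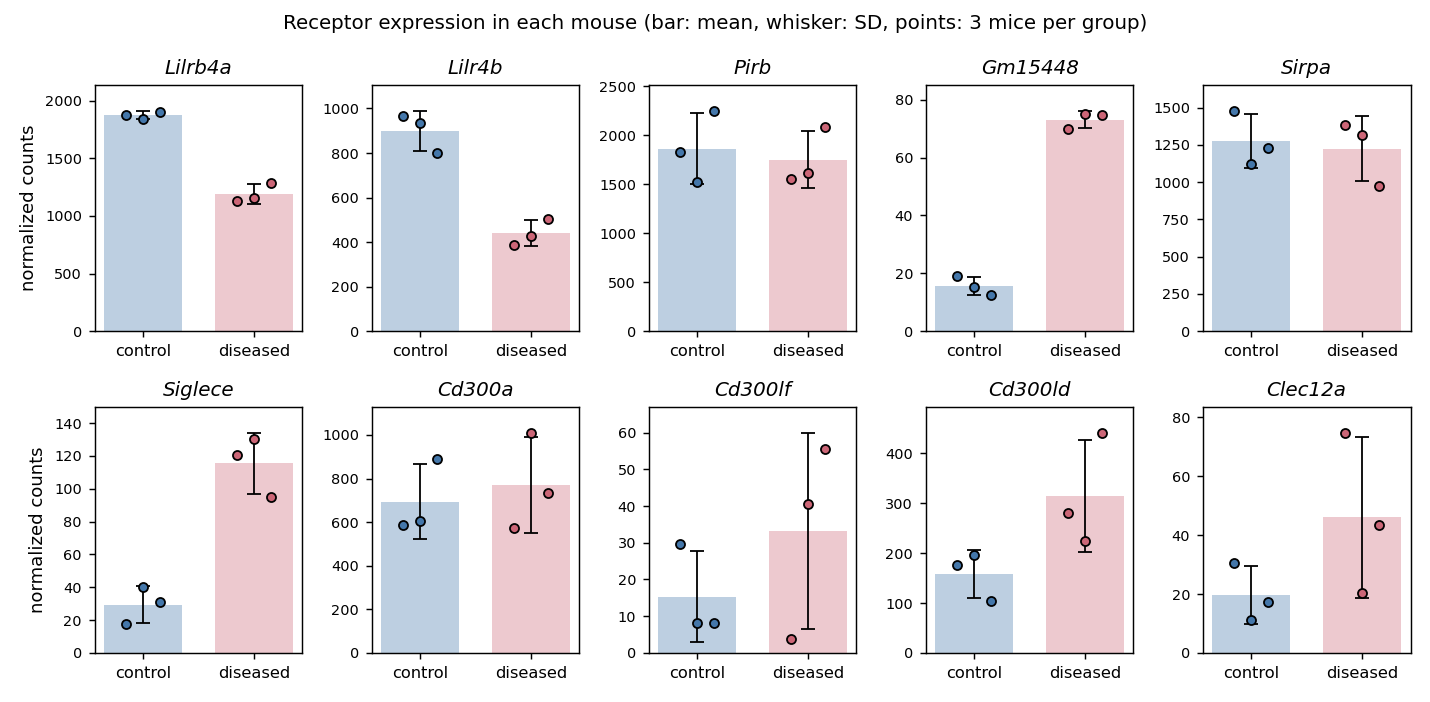
Normalized counts of each receptor on a linear axis from 0, with a panel per gene. Bars are means, whiskers are SDs and points are the 3 mice of a group, with control mice on the left and diseased-BWF1 mice on the right. Lilrb4a and Lilr4b are lower in every diseased-BWF1 mouse, Gm15448, Siglece and Cd300ld are higher in every one, and the other 5 genes overlap.

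Lilr4b, the gp49A gene without ITIMs, had 965, 933 and 798 normalized counts in controls against 387, 427 and 502 in diseased-BWF1 mice. Every diseased-BWF1 mouse lay below every control mouse, and the means were 899 ± 88.5 and 439 ± 58.4 (SD, n = 3). The log2 fold change was -1.04 (standard error, SE, 0.15). With 1 mouse left out it ranged from -1.14 to -0.96, with a call in 1 of these 6 fits only, that without control mouse 3. Over all genes, these 6 fits called 21 to 51 genes, against 128 with all mice.

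Lilrb4a, the inhibitory gp49B gene, had 1879.8, 1838 and 1905 normalized counts in controls against 1132, 1153 and 1289. The groups did not overlap, with means of 1874 ± 33.7 and 1191 ± 85.3. Its log2 fold change of -0.66 (SE 0.12) was not called with edgeR and was called with DESeq2, which called 3.54% of the genes it tested. Both genes of the pair were therefore lower in each diseased-BWF1 mouse, by different amounts. Counted together as 1 gene, they had 2845, 2771 and 2703 normalized counts against 1519, 1579.9 and 1791, and the log2 fold change was -0.77. Lilr4b made up 33.9%, 33.7% and 29.5% of the pair's counts in controls against 25.5%, 27.1% and 28.0% in diseased-BWF1 mice, so its share was lower in each diseased mouse. How reads shared by the pair were divided is not known.

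Gm15448, the predicted gene of the PIR cluster, had 19.0, 15.4 and 12.6 normalized counts in control mice. In diseased-BWF1 mice it had 69.9, 74.9 and 74.6, and the groups lay far apart. The means were 15.7 ± 3.21 and 73.2 ± 2.84, for a log2 fold change of 2.19 (SE 0.22), or 4.58-fold. Its counts lay only on model records, which RefSeq predicts without curation, and most were on 1 of them, with 13, 15 and 11 counts in control and 69, 67 and 64 in diseased-BWF1 mice. Leaving out 1 mouse gave log2 fold changes of 2.07 to 2.36, and the call was lost without control mouse 2, at 2.18.

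Pirb, the ITIM receptor of the cluster, had 1827, 1518 and 2243 normalized counts in controls against 1548, 1613 and 2081 in diseased-BWF1 mice. The groups overlapped, at a log2 fold change of -0.10 (SE 0.19). The sum over Pirb, Gm15448, Pira1, Pira2, Lilra6 and Gm14548 was 2312, 1823 and 2648 against 2015, 2129 and 2649.5. This sum overlapped as well, with a log2 fold change of -0.002. Gm15448 took 0.823%, 0.847% and 0.477% of the sum in controls against 3.47%, 3.52% and 2.82% in diseased-BWF1 mice. Pirb took 82.3 ± 2.95% and 77.0 ± 1.39%.

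The transcript records of Pirb differed between the groups in opposite directions, which was noticed after the values were seen. The curated mRNA record held 2126, 1427 and 1619 counts in controls against 1098, 1182 and 1416 in diseased-BWF1 mice. A model record of the same gene held 82, 49 and 334 counts in control and 501, 411 and 647 in diseased-BWF1 mice. This model record took 8.04 ± 7.85% of the gene's counts in controls against 29.2 ± 3.01% in diseased-BWF1 mice, without overlap. No test was run on these shares.

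**Figure D2:**
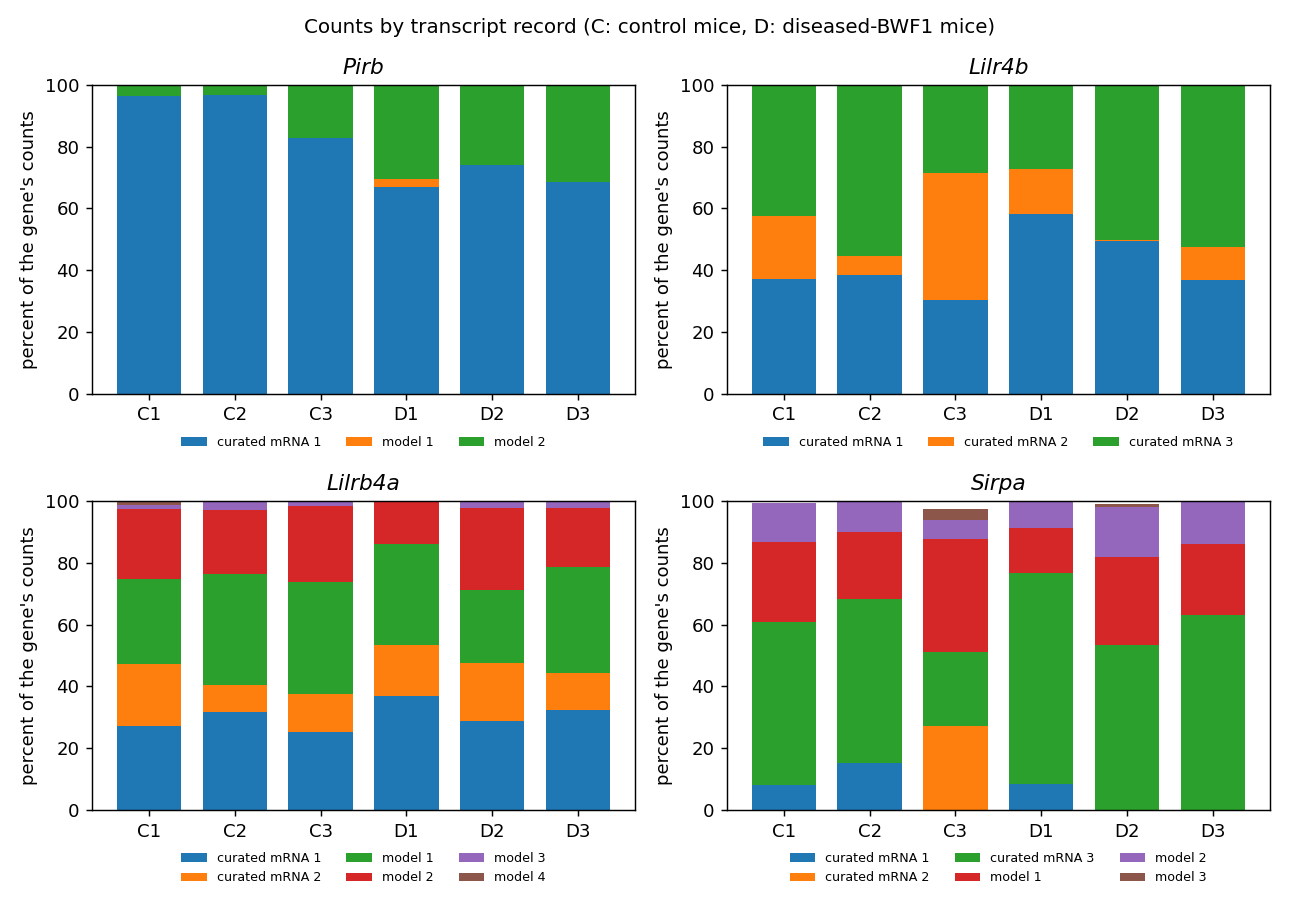
Percent of a gene's counts (vertical axis) on each of its transcript records for Pirb, Lilr4b, Lilrb4a and Sirpa, with 1 stacked bar per mouse (C1 to C3 control, D1 to D3 diseased-BWF1) and records with few counts left out. In Pirb the green model record takes 25% or more in each diseased-BWF1 mouse and less in each control mouse. The records of the other 3 genes mostly overlap between the groups.

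Sirpa (chr2:129591042-129632228) encodes SIRPα, the inhibitory receptor for CD47. It had 1475, 1123 and 1232 normalized counts in controls against 1381, 1319 and 977 in diseased-BWF1 mice. The groups overlapped, at a log2 fold change of -0.06 (SE 0.18). Its main curated record took 43.2 ± 16.9% of the counts in control and 61.7 ± 7.67% in diseased-BWF1 mice, and 1 curated record had 27.3% in control mouse 3 and 0% in every other mouse.

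Siglece (chr7:43648882-43672044) encodes Siglec-E, an ITIM receptor for sialic acids on myeloid cells. It had 17.4, 40.1 and 31.0 normalized counts in controls against 121, 131 and 94.8 in diseased-BWF1 mice. Every diseased-BWF1 mouse was above every control mouse, with means of 29.5 ± 11.4 and 115 ± 18.5. The log2 fold change was 1.98 (SE 0.31), or 3.94-fold. It ranged from 1.68 to 2.28 with 1 mouse left out, and none of these 6 fits called the gene. The curated record alone held 21, 34 and 22 counts in control and 106, 76 and 68 in diseased-BWF1 mice, so the direction did not rest on the model records.

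Cd300ld, the activating member of the CD300 genes examined, had 177, 195 and 104.5 normalized counts in controls against 281, 224 and 441 in diseased-BWF1 mice. The groups did not overlap, with means of 159 ± 48.1 and 315 ± 112. The log2 fold change of 0.98 (SE 0.31) was not called. Cd300ld took 5.57%, 5.61% and 3.16% of the counts of 10 CD300 genes in control mice, and 9.73%, 6.82% and 14.3% in diseased-BWF1 mice. The sum of the 10 genes overlapped between the groups, with 3324 ± 155 and 3084 ± 195 normalized counts.

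Cd300a (chr11:114889152-114901946) encodes an ITIM receptor for phospholipids of dying cells. It had 587, 605 and 891 normalized counts in control and 571, 1009 and 735 in diseased-BWF1 mice, with a log2 fold change of 0.15 (SE 0.25). Cd300lf had 29.8, 8.23 and 8.04 against 3.78, 40.5 and 55.5. The lowest and the highest values of Cd300lf were both in diseased-BWF1 mice, and its log2 fold change of 1.05 had a SE of 0.86. With 1 mouse left out it ranged from 0.48, without diseased-BWF1 mouse 3, to 2.00, without control mouse 1. Its 2 curated records carried the counts in different mice, with 36, 8 and 0 counts on one and 0, 0 and 2 on the other in control mice, and 0, 0 and 34 against 4, 40 and 21 in diseased-BWF1 mice.

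Clec12a (chr6:129349783-129365303) encodes an inhibitory C-type lectin that senses uric acid crystals and dead cells. Values were 30.6, 11.3 and 17.2 normalized counts in controls against 74.6, 20.3 and 43.4 in diseased-BWF1 mice. The diseased-BWF1 mouse with the lowest value lay within the control range. The log2 fold change was 1.20 (SE 0.54) and was not called. With 1 mouse left out it ranged from 0.66 to 1.69.

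Levels were compared between the receptors as CPM per kilobase of the longest coding transcript. In control mice Lilrb4a was highest at 358 ± 6.90, followed by Lilr4b at 129 ± 12.3 and Pirb at 128 ± 25.3, which did not differ beyond their SDs. Sirpa had 84.6 ± 11.7, Cd300a 39.4 ± 9.82 and Cd300ld 15.8 ± 4.77 CPM per kilobase. Siglece at 4.21 ± 1.64, Cd300lf at 2.14 ± 1.74, Clec12a at 2.08 ± 1.04 and Gm15448 at 1.93 ± 0.388 were the lowest, and each lay within the SDs of its neighbour. The order of levels in diseased-BWF1 mice was Lilrb4a (227 ± 14.8), Pirb (120 ± 19.2), Sirpa (81.1 ± 14.8), Lilr4b (62.9 ± 7.96), Cd300a (43.7 ± 12.5) and Cd300ld (31.3 ± 10.99). From Sirpa to Cd300ld, each gene lay within the SDs of the next, so the order of neighbours among these 4 is not settled. Sirpa differed from Cd300a and Cd300ld beyond their SDs, and so did Lilr4b from Cd300ld. Siglece (16.4 ± 2.71) and Gm15448 (8.97 ± 0.307) came next, above Clec12a (4.85 ± 2.89) and Cd300lf (4.63 ± 3.69), which did not differ beyond their SDs. Both low-abundance receptors that were called therefore stayed below Cd300a in level.

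Relatives of the receptors were taken from lists of family members and of other inhibitory or paired receptors. Of 60 genes listed, 30 passed the filter, 2 were called lower and none higher, against 1.22% of all genes in both directions. Control and diseased-BWF1 mice were fully separated for 15 of the 30 genes, with 4 higher and 11 lower, against 20.8% of all genes. Their median log2 fold change was -0.28, beside 0.0053 over all genes. The lists of relatives were chosen with earlier results of these data known. These counts, and the adjusted p values given for relatives below, therefore describe the lists and test nothing. Both called genes belong to the list of other inhibitory or paired receptors.

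Fcgr2b, the inhibitory IgG receptor with an ITIM, had 1916, 1735 and 2557 normalized counts in controls against 269, 524 and 523 in diseased-BWF1 mice. The fitted log2 fold change was -2.24 (SE 0.29, adjusted p = 0.0217, edgeR). Pilrb1, an activating receptor that pairs with Tyrobp, had 119, 126 and 76.9 against 40.6, 37.5 and 27.2, with a log2 fold change of -1.61 (SE 0.26, adjusted p = 0.0389, edgeR). In neither gene did the groups overlap. With 1 mouse left out the log2 fold changes ranged from -2.39 to -1.99 for Fcgr2b, which was called only without diseased-BWF1 mouse 1, and from -1.79 to -1.46 for Pilrb1, called only without control mouse 3. Besides Fcgr2b, the best expressed genes of the same list were Vsir (VISTA) and Ceacam1, which had log2 fold changes of 0.21 (SE 0.17) and 0.23 (SE 0.23).

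**Figure D3:**
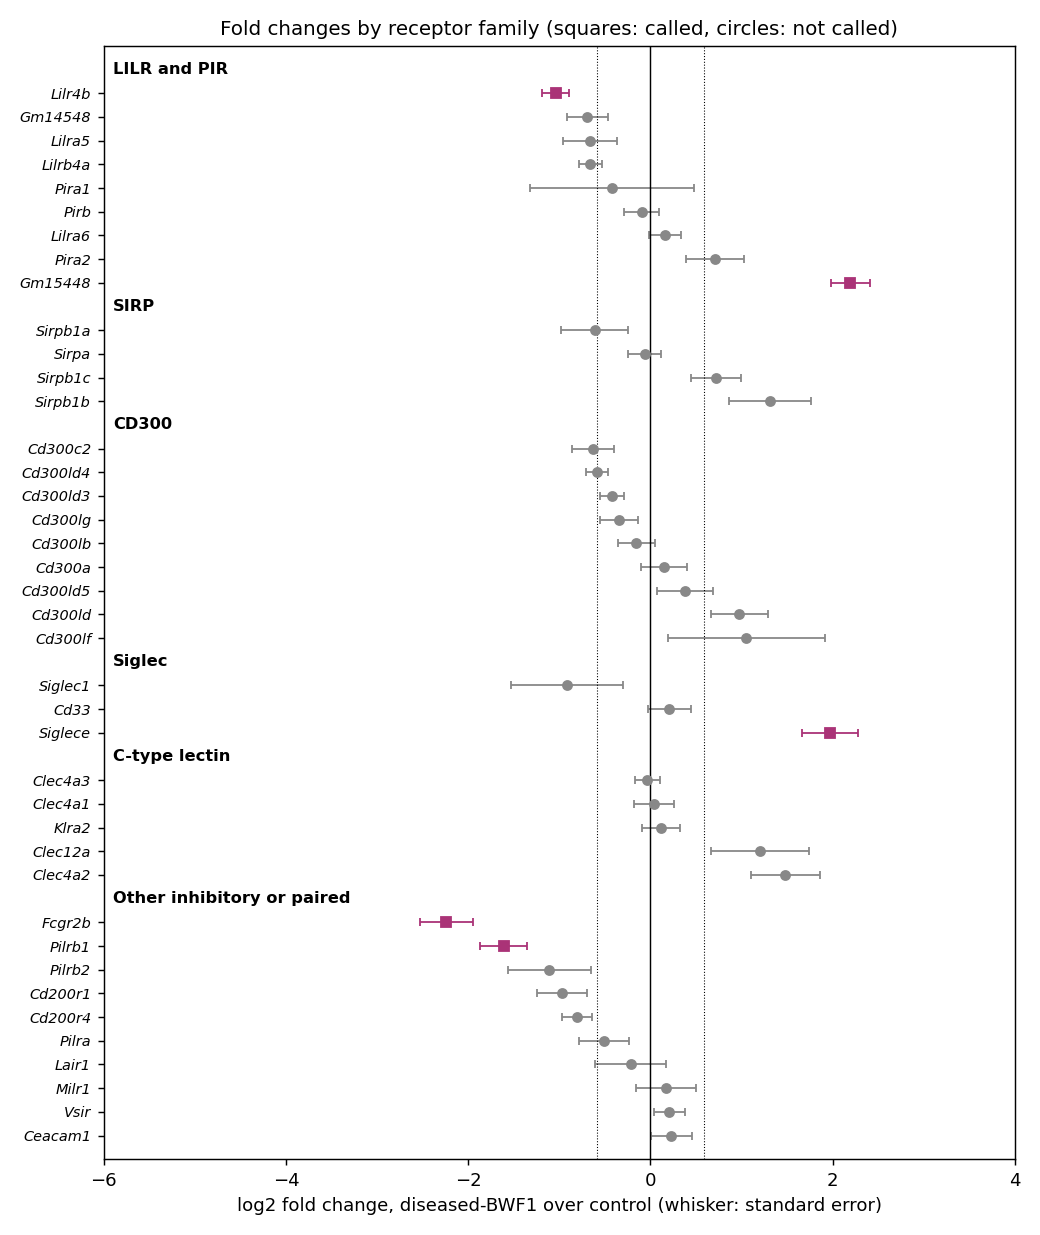
Log2 fold change of diseased-BWF1 over control mice (horizontal axis) for the receptors and their tested relatives, grouped by family, with whiskers for the standard error, dotted lines at a 1.5-fold change, squares for called genes and circles for the others. Gm15448 and Siglece lie furthest to the right, at 2.19 and 1.98, and Fcgr2b furthest to the left, at -2.24. Within the LILR and PIR, SIRP and CD300 families, genes lie on both sides of 0.

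Among the LILR and PIR relatives, 5 of 16 listed symbols were tested and none was called, against 1.22% of all genes. Pira2, an activating PIR, had 228, 85.4 and 181 normalized counts against 285, 242 and 286, with a log2 fold change of 0.71 (SE 0.32, adjusted p = 0.402, edgeR). Gm14548 and Lilra5 went the other way, with log2 fold changes of -0.69 (SE 0.23) and -0.67 (SE 0.29). None of these 3 overlapped between the groups, against 20.8% of all genes without overlap. Lilra6 and Pira1, the other tested relatives, overlapped at log2 fold changes of 0.16 and -0.42.

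The 3 activating SIRPβ genes had Sirpb1a lower (log2 fold change -0.61, SE 0.37) and Sirpb1b and Sirpb1c higher (1.31, SE 0.45, and 0.72, SE 0.28). All 3 were without overlap, against 20.8% of all genes, and none was called, against 1.22% of all genes. Sirpb1b had 3.09 to 9.93 normalized counts in control and 15.1 to 17.1 in diseased-BWF1 mice. Sirpb1a had 12.6 to 13.4 and 6.05 to 11.1, so both genes were near the floor of the libraries. Sequence shared among these 3 genes was not measured.

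Of the 6 tested CD300 relatives none was called, against 1.22% of all genes. Cd300ld3, the most abundant, had 1242, 1315 and 1100 normalized counts in controls against 848, 899 and 993 in diseased-BWF1 mice, with a log2 fold change of -0.42 (SE 0.13, adjusted p = 0.23, edgeR). Cd300ld4 had a log2 fold change of -0.59 (SE 0.12, adjusted p = 0.0751, edgeR). Cd300ld3 and Cd300ld4 lay lower in each diseased-BWF1 mouse and Cd300ld higher in each. Cd300lb, which signals through Tyrobp, overlapped at -0.16 (SE 0.20).

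Of the 8 Siglec relatives, Siglec1 and Cd33 were tested. Siglec1, which encodes sialoadhesin, had 2956 normalized counts in control mouse 1 against 612 and 603 in the other control mice and 939.5, 682 and 590.0 in diseased-BWF1 mice. The groups overlapped, and the log2 fold change of -0.92 had a SE of 0.62. Cd33 had a log2 fold change of 0.21 (SE 0.24). Among C-type lectin relatives the most abundant, Klra2, Clec4a1 and Clec4a3, had log2 fold changes of 0.12, 0.04 and -0.03. Clec4a2, an ITIM lectin named here after its values were seen, had 19.0, 14.4 and 14.9 against 51.0, 24.3 and 61.5, and was not called (log2 fold change 1.48, SE 0.38, adjusted p = 0.145, edgeR).

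Genes that carry or trigger the receptors' signals were taken from separate lists. Of 51 signalling and ligand genes listed, 47 were tested. None of the 47 was called with edgeR and 2 were with DESeq2, against 1.22% and 3.54% of all genes. Both counts are near those shares. An adjusted p under 0.05 without a fold-change threshold was reached by none of them with edgeR either, and over all genes 1385 had an unadjusted p under 0.05. The median log2 fold change was -0.03, and 7 of the 47 genes did not overlap between groups, against 20.8% of all genes.

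Tyrobp, the adaptor DAP12, had 2478, 2599.6 and 3035 normalized counts in control and 2305, 2437 and 1921 in diseased-BWF1 mice. The groups did not overlap, and the log2 fold change was -0.29 (SE 0.16, adjusted p = 0.497, edgeR). Fcer1g, the other ITAM adaptor, overlapped at -0.04 (SE 0.14), as did the kinase Syk at 0.16 (SE 0.13). Lyn had 1378, 1162 and 1244 against 1362, 1328 and 1547 normalized counts, with a log2 fold change of 0.16 (SE 0.13). Fgr, another Src-family kinase, and Csk, which restrains these kinases, had log2 fold changes of 0.40 and 0.14.

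Ptpn6, which encodes SHP-1, had 949.8, 1017 and 763 normalized counts in control and 1102, 1018 and 860.3 in diseased-BWF1 mice, with a log2 fold change of 0.12 (SE 0.16). Ptpn11 (SHP-2) and Inpp5d (SHIP-1) had log2 fold changes of 0.003 (SE 0.16) and -0.05 (SE 0.20), and Dok2, a docking protein, -0.28 (SE 0.17). The groups overlapped for each of these 4 genes.

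Of the protein ligands, fibronectin and apolipoprotein E bind LILRB4, and MHC class I binds PIR-B. Fn1, Apoe and H2-D1 had log2 fold changes of 0.31 (SE 0.21), -0.41 (SE 0.32) and -0.17 (SE 0.18), each with overlapping groups. Siglec-E binds sialic acids. None of the 16 genes of sialic acid synthesis, transfer and removal was called, against 1.22% of all genes, which is near that share. Of the 16, 2 were lower without overlap, against 20.8% of all genes without overlap in either direction. The most abundant, St3gal5, Cmah and St6gal1, had log2 fold changes of -0.05, -0.23 and -0.02.

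Thbs1, Blnk and Cd47 are named here after their values were seen. Thbs1 encodes thrombospondin-1, a ligand of CD47, and had 448, 809 and 2302 normalized counts in control and 6787, 13559 and 5509.8 in diseased-BWF1 mice. The groups did not overlap, and the log2 fold change was 2.86 (SE 0.65, adjusted p = 0.103, edgeR). Blnk, an adaptor of ITAM signalling, had 65.4, 81.3 and 97.6 against 29.3, 40.5 and 28.2, with a log2 fold change of -1.31 (SE 0.24, adjusted p = 0.0549, edgeR). These are the 2 genes that DESeq2 called. Cd47, the ligand of SIRPα, overlapped at -0.24 (SE 0.17).

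**Figure D4:**
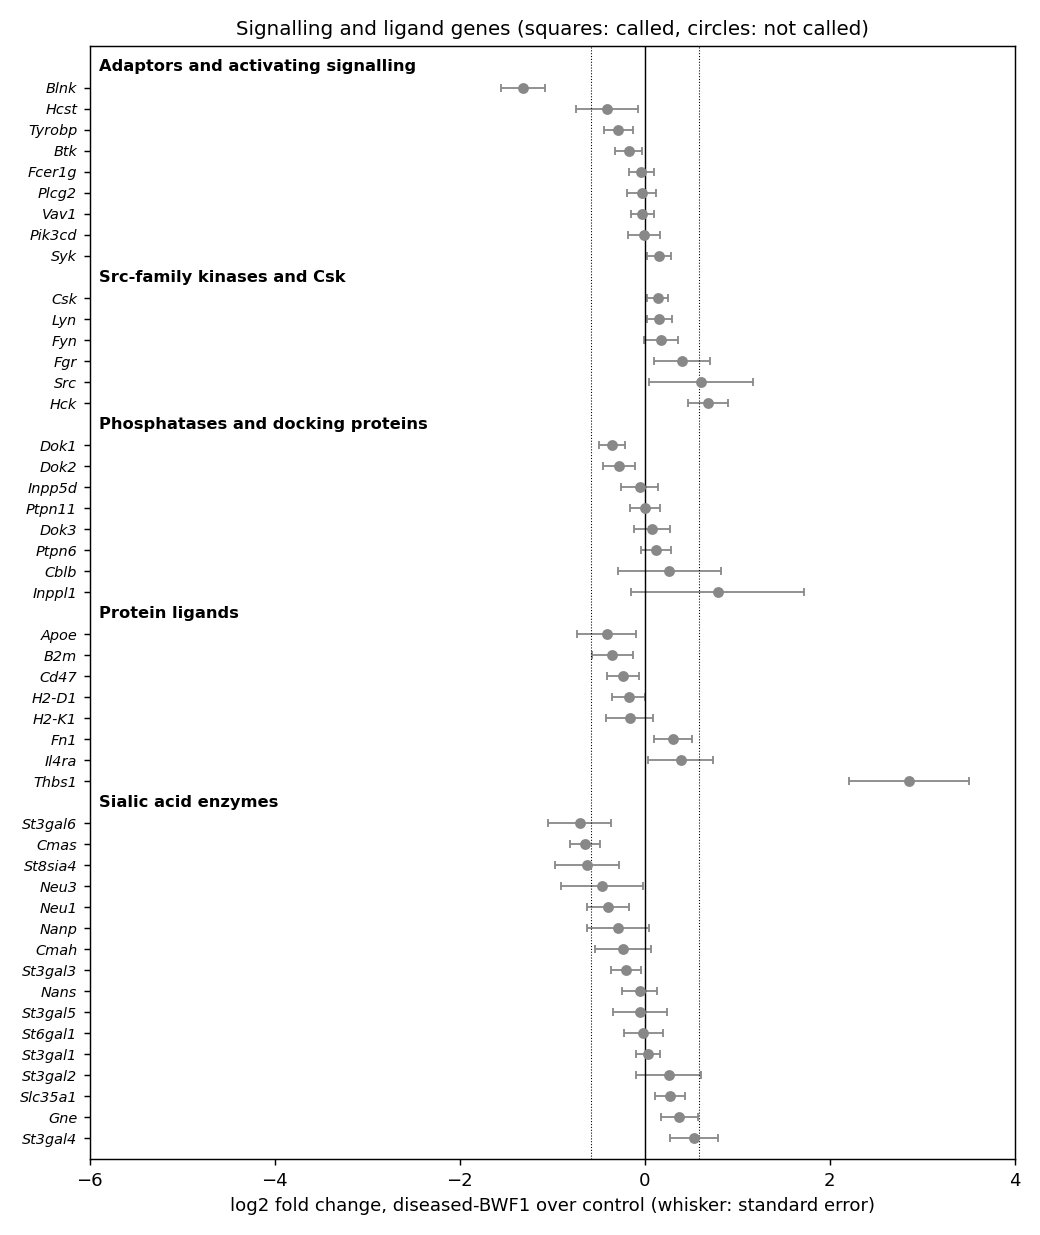
Log2 fold change of diseased-BWF1 over control mice (horizontal axis) for the 47 tested signalling and ligand genes, grouped by role, with whiskers for the standard error and dotted lines at a 1.5-fold change. All are circles, since none was called, and Thbs1 at 2.86 and Blnk at -1.31 lie furthest from 0.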

How the data were processed

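RNA from cell-sorted PMs of 6 female mice was sequenced by the study as paired-end reads of stranded mRNA libraries. The authors deposited, for each mouse, estimated counts per RefSeq transcript record, given as whole numbers without normalization. The submitters' processing notes name Salmon 0.8.0, DESeq2 and GRCm38.p6 without giving their roles. How reads shared by paralogs or records were divided is not given in the sources used here.

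Records were matched to RefSeq genes, 45754 with the same version and 40712 with another, and summed per gene. The 20727 unmatched records were left out, and 89.1% to 93.0% of counts were on genes. Groups were compared with edgeR 4.0.16 in R 4.3.3 (filterByExpr, TMM, glmQLFit and glmQLFTest) and Benjamini-Hochberg adjustment over 10505 genes. The common dispersion was 0.0543. Log2 fold changes are edgeR's. Standard errors were derived from its fit, as the absolute log2 fold change divided by the square root of the quasi-likelihood F statistic. DESeq2 1.42.0 gave size factors and an alternative test. The code was tested on simulated data.

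The receptors and lists were chosen with earlier results of these data known, so no p is given for the receptors. The text names all 10 receptors, each called gene of the other lists and up to 3 of their most abundant tested genes, the adaptors, kinase and phosphatases of the background, and marker genes that were called or at 0 in every mouse. Exceptions are said to be named after their values were seen. Sequences came from RefSeq and GENCODE vM21, with no gapped bases counted as aligned. Of 16 LILR and PIR symbols, 11 had no record under that name. Mice of 1 group are separate animals, with 3 per group, and the alternatives are given in the closing section. Some genes that this rule covers are not reported here. No deposited file was left out.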

Additional observations from a re-analysis of the deposited data

How the results depend on the processing

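Receptors called numbered 3 of 10 and relatives called 2 of 30. The replicate numbers come from the labels only, which do not say that they pair the mice, and the main fit was unpaired. Mice with the same number correlated at 0.128, 0.00965 and 0.162 in their deviations from the group means. Mice with different numbers correlated at -0.147 to 0.0597. These few values do not settle whether the numbers pair the mice. A replicate block lowered the receptors called to 1 (Gm15448) and all genes called from 128 to 38, and left 2 relatives and 0 signalling or ligand genes. Curated mRNA records alone gave 0 receptors and 0 relatives, with 16 genes called in all and Gm15448 not measured, and moved Sirpa to 0.042 (log2 fold change). Leaving out 1 mouse gave 0 to 2 receptors and 0 to 1 relatives, with 21 to 51 genes called in all. It moved the log2 fold changes of Pirb to between -0.236 and 0.061 (above 0 without control mouse 3), of Sirpa to between -0.16 and 0.081 (0.049 without control mouse 1 and 0.081 without diseased-BWF1 mouse 3) and of Cd300a to between -0.086 (without diseased-BWF1 mouse 2) and 0.372. Signalling and ligand genes called rose from 0 to 2 with DESeq2 (372 genes in all) and to 2 without the low-count filter (259 genes). With paralogs summed, the PIR sum that stands for Gm15448 was at -0.002. At least 10 counts in every library gave 84 genes in all. Apart from the reversals given here, each receptor kept its direction in the alternatives that measured it. Cd300lf was not tested with at least 10 counts in every library. Why calls were lost was not tested.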

Other observations

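Some genes of the lists were at 0 in a single mouse and well above the floor in the others. Pira1 had 43.9, 38.1 and 48.2 normalized counts in control mice and 0, 59.8 and 38.3 in diseased-BWF1 mice. Inppl1, which encodes SHIP-2, had 213, 252 and 0 in control and 304, 226 and 280.4 in diseased-BWF1 mice. Both were noticed after the values were seen. Mag, a Siglec below the filter, had 0 counts in every control mouse and 12, 0 and 6 in diseased-BWF1 mice.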
